A study of Saccharomyces cerevisiae with 24 samples.

Results

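The heat shift of the yeast strain npl3-P196D-A197D was followed in 6 of the 24 libraries of the series, chosen by the strain name and temperature in their labels: 3 libraries from cells 1 hour after a move to 37 °C and 3 from cells kept at 30 °C. The cells are Saccharomyces cerevisiae W303, MATa and GAL+, with the markers can1-100, ade2-1, his3-11,15, trp1-1 and ura3-1 and a leu2 double mutation. The strain label reads npl3-shuffle with the plasmid pRS315 carrying npl3-P196D,A197D, and cells of both temperatures have it. pRS315 is a low-copy LEU2 plasmid, and in a shuffle strain the plasmid copy usually stands in for a deleted chromosomal gene, which these labels do not spell out. Cultures were grown in rich medium (YPD) at 30 °C to mid-log phase, and the shifted ones then spent 1 hour in a shaking water bath at 37 °C. The labels do not say whether the cultures kept at 30 °C grew for that hour as well, so an added hour of growth and the temperature cannot be told apart. No other strain enters the comparison, so nothing here says whether the wild type responds otherwise.

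Npl3 is an SR-like protein that binds nascent and mature mRNA and takes part in transcription elongation, splicing, 3′ end formation and nuclear export. Its RNA recognition motifs are joined by a short linker, in which the substitutions P196D and A197D lie. In yeast, heat acts on transcription along 2 known routes: the heat shock factor Hsf1 drives chaperone genes through heat shock elements, and Msn2 and Msn4 drive general stress genes through stress response elements (STRE). Growth genes, among them those of ribosomes, are turned down in the same stress. During a severe heat shock Npl3 has been reported to leave most mRNAs, while heat shock transcripts are still exported.

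The coding stretch that the allele changes is shown because the allele differs from NPL3 there. It is printed 5′ to 3′ from the reference strain (RefSeq assembly R64), codons 184 to 209 of 414, with the proline and alanine codons that P196D and A197D replace in capitals.
NPL3 (chrIV:1329332-1329409, + strand): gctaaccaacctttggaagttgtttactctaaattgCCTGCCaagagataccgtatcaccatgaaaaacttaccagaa
The plasmid's own sequence was not used here, and the counts do not separate mutant from wild-type reads.

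The libraries held 19514550, 34357019 and 20475458 counts assigned to genes at 37 °C, and 15832309, 22419434 and 19321176 at 30 °C. Of 7127 features, 6299 passed the filter on low counts and were tested. Within a temperature, libraries correlated with Pearson's r of 0.9967 to 0.9983 in log2 CPM (counts per 1000000 of the TMM-scaled library), and across temperatures with at most 0.981. Each r is taken over genes, and genes are no independent replicates. The first principal component, with 87.6% of the variance, separated the temperatures. Replicate 2 at 37 °C was the deepest library, and its title carries a number from another series than the other 5. Nothing in the labels says that replicates came from separate cultures, so the spread behind the p-values may be only technical. Of the mating-type markers, the pheromone receptor gene STE2 of a cells averaged 321 ± 5.46 CPM at 37 °C and 575 ± 7.01 CPM at 30 °C, and the α-factor genes of α cells, MF(ALPHA)1 and MF(ALPHA)2, averaged at most 5.30 CPM at either temperature. α-agglutinin SAG1 was counted at 74.9, 69.3 and 68.0 CPM at 37 °C, against 81.6, 81.2 and 74.5 CPM at 30 °C. The label MATa therefore goes with the a-cell genes and with low α-factor genes, while SAG1 and STE3 were above 0.

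NPL3 itself (build R64, chromosome IV, 1328783 to 1330027) was counted in every library, at 271, 301 and 313 CPM at 37 °C, against 320.4, 327 and 333 CPM at 30 °C. The 3 values at 37 °C all lay below those at 30 °C, with a log2 fold change of -0.15 ± 0.05 (SE). The edgeR test gave an adjusted p of 0.0181 and the exact two-sided permutation test p = 0.1, the smallest that 3 against 3 libraries allow. The direction depends on the scaling: by library totals alone the log2 fold change was 0.01, with an edgeR adjusted p of 0.865. The call is also lost without replicate 1 at 37 °C (log2 fold change -0.096, edgeR adjusted p 0.0604), without replicate 2 at 30 °C (-0.15, 0.0534) and without replicate 3 at 30 °C (-0.13, 0.0698).

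Most of the transcriptome moved, mostly by little. In edgeR's quasi-likelihood test 4005 genes passed an adjusted p of 0.05 (63.6% of those tested), 2078 of them higher at 37 °C (33%) and 1927 lower (30.6%). Of all genes tested, 4277 (67.9%) had values that did not overlap between the temperatures. The median gene called higher stood 1.31-fold above its level at 30 °C, and the median gene called lower stood 1.25-fold below. Changes of at least 2-fold were less even, with 273 genes higher (4.33%) and 84 lower (1.33%), and 4-fold was passed by 39 higher and 2 lower genes. Of those 2-fold changes, 158 higher and 51 lower genes averaged at least 10 CPM. The largest edgeR adjusted p was 4.79e-08 among the 15 largest rises named here and 1.85e-09 among the 15 largest falls. By library totals, which leave out the TMM factors, all log2 fold changes move up by 0.157 at the median and the calls split into 3212 higher and 1113 lower, 74.3% higher in place of 51.9%. Directions below hold relative to that shift. It turns the sign of the median of 10 of the 39 gene lists, which are named where they are described.

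**Figure D1:**
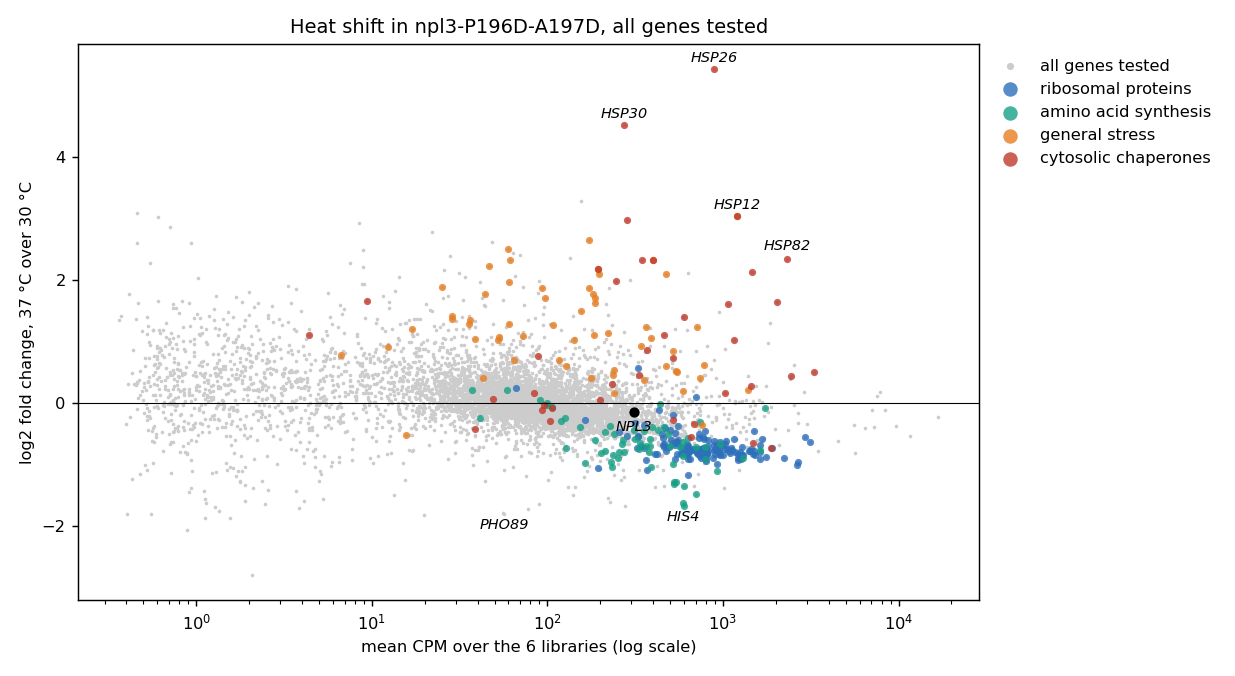
Log2 fold change (37 °C over 30 °C) of all 6299 genes tested in npl3-P196D-A197D against mean CPM over the 6 libraries, on a log axis, with 4 gene lists coloured and NPL3 in black. HSP26 and HSP30 stand apart at 5.42 and 4.51, while ribosomal protein genes form a dense group below 0 among the highly expressed genes.

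The small heat shock proteins and the disaggregase had the highest median of the 39 lists: all 11 measured genes of that list rose, 8 of them at least 2-fold, with a median log2 fold change of 2.13 against 0.02 over all genes tested. HSP26, whose product is a small heat shock protein that binds unfolding proteins, had 1743, 1835 and 1663 CPM at 37 °C, against 44.8, 42.6 and 35.3 CPM at 30 °C. That is a log2 fold change of 5.42 ± 0.076 (SE), or 42.8-fold, the largest of any gene named here. Per length, HSP26 stood at rank 35 of the genes at 37 °C, with 2708 CPM per kb of coding sequence, and at rank 2768 at 30 °C, with 63.4 CPM per kb. HSP30, a plasma membrane protein that lowers the activity of the proton pump Pma1, had 549, 503 and 512 CPM at 37 °C, against 22.7, 25.7 and 19.9 CPM at 30 °C (log2 fold change 4.51). HSP12, a small membrane-binding protein, had 2219.6, 2131 and 2086 CPM at 37 °C, against 287, 286 and 215 CPM at 30 °C (3.03). All values at 37 °C lay far above all values at 30 °C for these 3 genes.

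Among the proteins that sort and dissolve aggregates, HSP42, the small heat shock protein that gathers them, had 641, 679 and 684 CPM at 37 °C, against 130.3, 139 and 131 CPM at 30 °C (log2 fold change 2.32). BTN2, a sorting factor that works with it, had 561, 554 and 602 CPM at 37 °C, against 115, 117 and 111 CPM at 30 °C (2.32). HSP104, the ring-shaped disaggregase, had 2224, 2502 and 2385 CPM at 37 °C, against 521, 562 and 539.8 CPM at 30 °C (2.13). The groups did not overlap for any of them. CUR1, the paralogue of BTN2, rose less, with a log2 fold change of 0.76, as did HSP31 of the DJ-1 family (0.87) and the coactivator gene MBF1 (0.45). HSP33 and HSP32 also rose (1.65 and 1.10), but they are nearly identical to each other and to SNO4, so reads could be shared among them. As a share of all assigned counts, this list took 0.952 ± 0.0125% at 37 °C and 0.164 ± 0.00658% at 30 °C (mean ± SD, n = 3).

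The following 4 stretches upstream of such genes are shown because each carries the motif of Hsf1. The search covered bases 101 to 500 before the start codon of 5726 protein-coding genes tested, in build R64, on both strands, for GAANNTTCNNGAA and its reverse complement TTCNNGAANNTTC, where N is any base. Below are 120 bases of the gene's strand around the matches, with the matches in capitals.
HSP104 (chrXII:88270-88389, + strand): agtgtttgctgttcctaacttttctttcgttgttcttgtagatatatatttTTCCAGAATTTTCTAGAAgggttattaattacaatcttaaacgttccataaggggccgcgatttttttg
HSP42 (chrIV:806327-806446, + strand): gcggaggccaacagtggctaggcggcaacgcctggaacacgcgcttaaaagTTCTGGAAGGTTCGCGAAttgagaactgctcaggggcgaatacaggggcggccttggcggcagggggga
BTN2 (chrVII:772059-772178, + strand): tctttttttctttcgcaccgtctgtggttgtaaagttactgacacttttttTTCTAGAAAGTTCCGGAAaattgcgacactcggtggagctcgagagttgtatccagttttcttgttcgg
SSA1 (chrI:141680-141799, - strand): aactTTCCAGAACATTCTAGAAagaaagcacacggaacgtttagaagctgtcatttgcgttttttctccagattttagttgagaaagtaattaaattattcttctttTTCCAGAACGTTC
In all 4 a pair of overlapping matches forms a run of 4 alternating units, and SSA1 holds another match further down. The motif occurred in 80 of 5726 windows (1.40%), in 11 of 157 windows of genes at least 2-fold higher with at least 10 CPM (7.01%) and in none of 50 windows of the genes that fell by as much. It was present in 3 of 9 Hsp70 and Hsp110 genes, in 4 of 19 genes of the Hsp90 list and in 3 of 11 genes of the small heat shock protein list. Of the 17 genes with 2 or more matches, 12 were higher at 37 °C (70.6%) and 7 at least 2-fold (41.2%). Of the 63 with 1 match 38.1% were higher and 7.94% at least 2-fold, and of the 5646 with none 33.8% and 3.75%. HSP82, SSA4, HSP26 and CPR6 had no match of this strict form in the window, which says only that these letters are not there.

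Cytosolic Hsp70 genes moved in both directions, by subfamily: 6 of the 9 rose and 3 fell. SSA4, the stress-inducible member, had 472, 530.4 and 506 CPM at 37 °C, against 63.98, 62.5 and 64.7 CPM at 30 °C, a log2 fold change of 2.98 ± 0.052 (SE). SSA3, a related inducible gene, had 322, 343 and 287 CPM at 37 °C, against 74.8, 67.8 and 68.7 CPM at 30 °C (2.18). The more abundant SSA1 had 2952, 3278 and 3015 CPM at 37 °C, against 1011, 1020.3 and 915 CPM at 30 °C (1.65), and SSA2 had 2769.8, 2874 and 2848 CPM at 37 °C, against 2109, 2150.1 and 1969.6 CPM at 30 °C (0.45). SSA1 and SSA2 are near-identical copies, so their split of reads is uncertain. Both Hsp110 genes, whose products are nucleotide exchange factors of Hsp70, rose: SSE2 by 1.99 and SSE1 by 0.27 in log2.

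The ribosome-bound side went the other way. SSB1, an Hsp70 that binds nascent chains, had 1381, 1484 and 1401 CPM at 37 °C, against 2337, 2300.0 and 2392 CPM at 30 °C (-0.72). SSB2, its near-identical copy, had 1118, 1196 and 1148 CPM at 37 °C, against 1817, 1762 and 1846 CPM at 30 °C (-0.65). Their partners in the ribosome-associated complex fell as well, SSZ1 by 0.33 and the J-protein gene ZUO1 by 0.54 on the log2 scale. No values of these 4 genes overlapped between the temperatures.

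**Figure D2:**
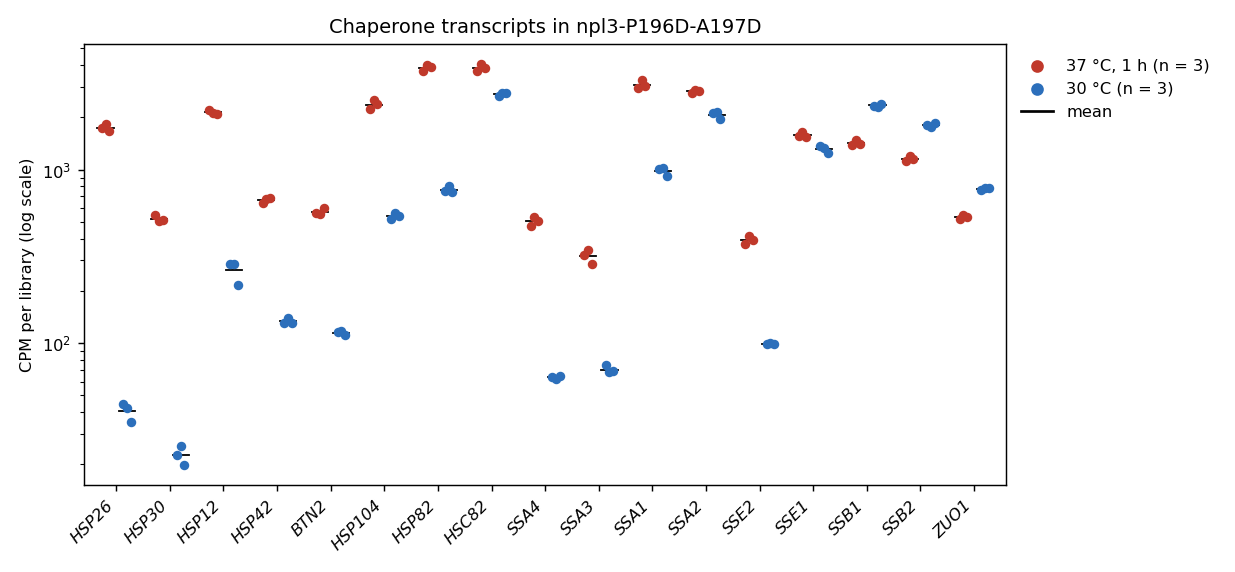
CPM per library (log axis) of 17 chaperone genes in npl3-P196D-A197D, with 37 °C left and 30 °C right for each gene, points for the 3 libraries and a bar for the mean. HSP82 meets HSC82 at 37 °C, and SSB1, SSB2 and ZUO1 are the genes shown whose points at 37 °C lie below those at 30 °C.

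Both Hsp90 genes rose, with several of their co-chaperones: 10 of 19 genes of this list rose, 4 fell and 5 did not pass the test, with a median log2 fold change of 0.16. HSP82, the inducible Hsp90 gene, had 3700.3, 4011 and 3897 CPM at 37 °C, against 750.0, 806 and 744 CPM at 30 °C, a log2 fold change of 2.33 ± 0.049 (SE). HSC82, the constitutive one, had 3701, 4058 and 3863 CPM at 37 °C, against 2662, 2758 and 2773 CPM at 30 °C (0.50). Per length both stood level at 37 °C, with 1817 ± 73.8 CPM per kb for HSP82 and 1829 ± 84.5 CPM per kb for HSC82 (SD, n = 3), while at 30 °C HSC82 exceeded HSP82 3.58-fold. The cyclophilin CPR6 (1.62), the ATPase activators AHA1 (1.40) and HCH1 (1.11) and the Hsp70 to Hsp90 adaptor STI1 (1.03) all rose at least 2-fold. SIS1, a J-protein of the cytosol and nucleus, rose by 0.73, and the exchange factor FES1 by 0.31. YDJ1 (0.17) and SGT1 (0.16) rose slightly, the SGT1 call being lost without replicate 2 at 30 °C (0.14).

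Other co-chaperones did not follow. SBA1, the p23 homologue, fell by 0.27 on the log2 scale, the phosphatase gene PPT1 by 0.29 and the membrane-anchored SNL1 by 0.42. CDC37, which loads kinases on Hsp90, had 179, 217 and 211 CPM at 37 °C, against 189, 191 and 203 CPM at 30 °C, and the groups overlapped. CPR7 (-0.09), CNS1 (-0.10), APJ1 (0.06) and JJJ1 (-0.02) did not pass the test either. By library totals CDC37 and APJ1 passed it as higher, at 0.22 each, and CDC37 also without replicate 1 at 37 °C, at 0.14.

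Chaperones of mitochondria and of the endoplasmic reticulum rose too, most of them in smaller steps. In mitochondria 7 of 11 genes rose and 3 fell. The disaggregase HSP78 had 944, 1071 and 1045 CPM at 37 °C, against 237, 245.1 and 227 CPM at 30 °C (log2 fold change 2.11), and the chaperonin genes HSP60 and HSP10 rose by 0.98 and 0.87. MGE1, the exchange factor of mitochondrial Hsp70, fell by 0.41, with the import motor gene TIM44 (fell by 0.27) and the protease gene PIM1 (fell by 0.27, a call that is lost by library totals). In the endoplasmic reticulum 18 of 22 genes rose and none fell (4 did not pass edgeR's test at an adjusted p of 0.05), with a median log2 fold change of 0.39. KAR2, the Hsp70 of that compartment, had 2523, 2743 and 2638 CPM at 37 °C, against 1079, 1070.2 and 1056 CPM at 30 °C (1.30), and the oxidase gene ERO1 rose by 0.85. ULI1, a short gene induced by the unfolded protein response, rose by 1.34.

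The regulators changed less than the most induced chaperone genes, with log2 fold changes from -0.55 to 0.92. Their median of 0.22 was above the 0.16 of the Hsp90 list. HSF1 had 128, 131 and 133 CPM at 37 °C, against 118, 113 and 109.8 CPM at 30 °C, a log2 fold change of 0.21, and MSN4 rose by 0.12, a call that is lost without replicate 3 at 37 °C (0.11), replicate 2 at 30 °C (0.12) or replicate 3 at 30 °C (0.12). MSN2 fell by 0.41, with 104, 108 and 113 CPM at 37 °C against 149, 146 and 137 CPM at 30 °C. Among the rises of this list of 20 were HAC1, which encodes the transcription factor of the unfolded protein response (0.92), the repressor gene XBP1 (0.70), the protein kinase A gene TPK2 (0.70) and YAK1, a kinase that protein kinase A holds back (0.68). YAK1 overlaps the dubious frame IRC9 on the same strand. RIM15 (0.51), RLM1 (0.37), BCY1 (0.26), GIS1 (0.25), SLT2 (0.24), RPN4 (0.15) and RAS2 (0.14) also rose, and the RAS2 call is lost without replicate 3 at 37 °C or replicate 1 at 30 °C (0.10 in both cases). Besides MSN2, SOK2 (-0.55), GCN4 (-0.38), YAP1 (-0.17) and HOG1 (-0.16) fell, the last pair with calls that are lost by library totals. TPK3 was at 67.6, 74.6 and 74.3 CPM at 37 °C, against 70.8, 73.5 and 75.9 CPM at 30 °C, and the groups overlapped. In all, 14 of the 20 rose and 5 fell.

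General stress genes rose almost as a body: 56 of 58 listed targets of Msn2 and Msn4 were higher and 2 lower, with a median log2 fold change of 1.12. SSA3, HSP12 and HSP42 are also in this list. DDR2, a small multistress gene, had 312, 280.3 and 304 CPM at 37 °C, against 48.5, 53.2 and 41.4 CPM at 30 °C (log2 fold change 2.64). SPI1, a cell wall protein gene, had 106, 96.0 and 103 CPM at 37 °C, against 19.1, 18.4 and 16.5 CPM at 30 °C (2.49). The exceptions were GRE2, a methylglyoxal reductase gene (-0.36), and the mitochondrial pyruvate carrier subunit MPC3 (-0.52). The list took 2.07 ± 0.0177% of assigned counts at 37 °C and 0.960 ± 0.0278% at 30 °C (mean ± SD, n = 3).

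Storage carbohydrate genes moved with them, 21 of 22 higher and 1 lower, with a median of 0.87. PGM2, the major phosphoglucomutase, had 208, 256 and 213 CPM at 37 °C, against 44.7, 45.8 and 41.4 CPM at 30 °C (2.36), glycogen phosphorylase GPH1 rose by 2.00 and the phosphatase subunit gene GIP2 by 1.89. PGM1, the minor phosphoglucomutase, was the gene that fell (-0.36). Together the chaperone lists of all compartments and the general stress and storage lists held 59 of the 158 genes that rose at least 2-fold with at least 10 CPM.

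Another 3 windows from these genes are shown for their STRE matches (AGGGG or its reverse complement CCCCT), in capitals, from the same search.
HSP12 (chrVI:106790-106909, + strand): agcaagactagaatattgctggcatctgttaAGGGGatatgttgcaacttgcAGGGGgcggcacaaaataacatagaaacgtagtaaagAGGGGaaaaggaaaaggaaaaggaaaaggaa
DDR2 (chrXV:231902-232021, - strand): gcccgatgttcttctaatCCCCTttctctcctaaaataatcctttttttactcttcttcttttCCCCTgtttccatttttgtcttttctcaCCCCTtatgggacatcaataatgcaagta
HSP26 (chrII:381530-381649, + strand): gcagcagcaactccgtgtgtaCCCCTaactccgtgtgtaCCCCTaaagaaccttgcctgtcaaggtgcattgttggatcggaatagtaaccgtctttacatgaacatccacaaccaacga
HSP12 held 5 matches in bases 101 to 500 before the start codon, DDR2 4 and HSP26 3, of which the printed stretches show 3, 3 and 2. A match was present in 1697 of 5726 windows (29.6%), in 51 of 58 general stress genes (87.9%), in 17 of 22 storage carbohydrate genes (77.3%) and in 108 of 157 genes at least 2-fold higher with at least 10 CPM (68.8%). Of 363 genes with 2 or more matches 61.4% were higher at 37 °C, of 1334 with 1 match 40.3% and of 4029 with none 29.3%. The general stress list was drawn from known targets of Msn2 and Msn4, so its share is not independent of the motif.

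Several of the largest rises were the lesser-used member of a pair of related enzymes. SHH3, a homologue of the membrane subunit SDH3 of succinate dehydrogenase, had 40.1, 38.9 and 35.9 CPM at 37 °C, against 4.83, 6.07 and 5.64 CPM at 30 °C (2.78). In the pentose phosphate pathway SOL4 rose by 2.62, GND2 by 2.41 and TKL2 by 2.38, while their abundant partners SOL3, GND1 and TKL1 stood at 0.07, -0.0039 and -0.12. The values of these 3 partners lie within the shift of 0.157 between the scalings, so no direction is given for them. EGO4 and the respiratory growth gene RGI1 were the other unlisted genes among the 15 largest rises, with 303, 259.6 and 277 CPM at 37 °C, against 32.3, 28.6 and 25.6 CPM at 30 °C for EGO4 and a log2 fold change of 2.44 for RGI1.

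Ratios within a library, which no scaling of libraries can change, were computed for 19 pairs chosen after their values were seen. The ratio of the first to the second gene was higher in all 3 libraries at 37 °C than in any at 30 °C for 18 of them. Since the pairs were picked that way, this count is no test. For single genes, 67.9% of those tested had values that did not overlap between the temperatures. Per length, TKL1 exceeded TKL2 30.6-fold at 37 °C and 172-fold at 30 °C. CYC1, the main cytochrome c gene, exceeded CYC7 2.56-fold at 37 °C and 15.0-fold at 30 °C, and hexokinase HXK2 exceeded HXK1 1.60-fold at 37 °C and 4.73-fold at 30 °C. PGM2 passed PGM1, with ratios of 1.46 at 37 °C and 0.222 at 30 °C. The exception was ECM10 over SSC1, both mitochondrial Hsp70 genes, with 0.0228 at 37 °C and 0.0215 at 30 °C.

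**Figure D3:**
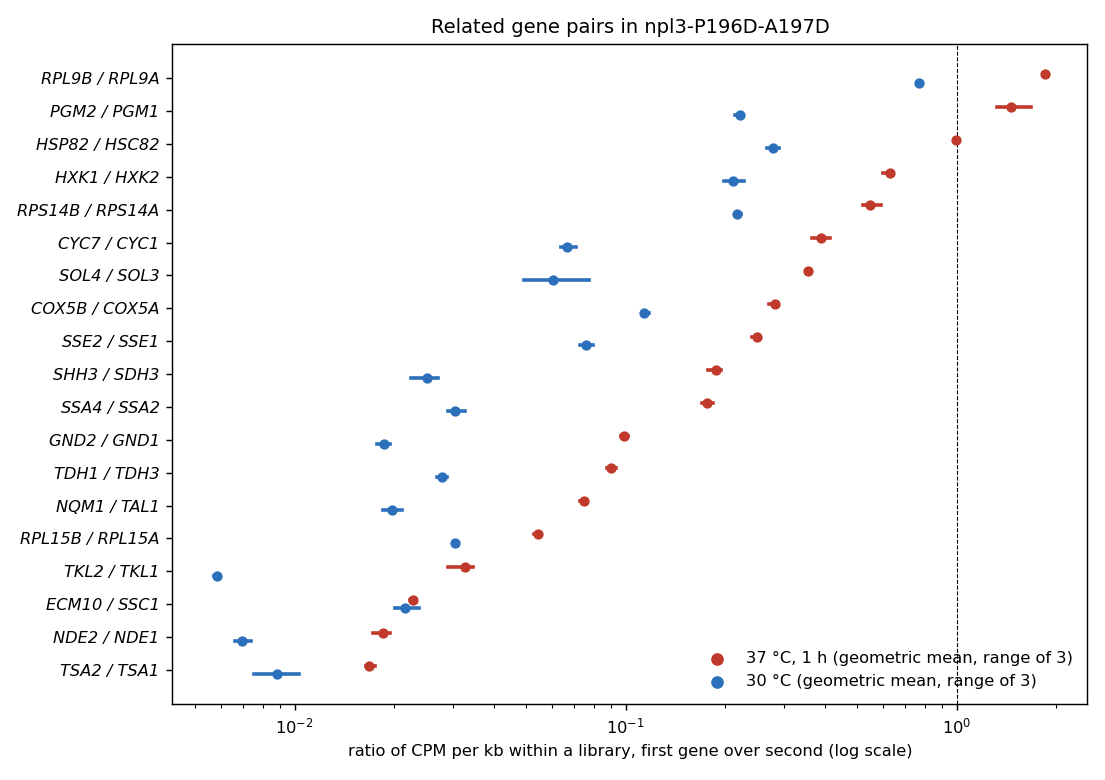
Ratio of CPM per kb within each library for 19 pairs of related genes (first over second, log axis), at 37 °C above and at 30 °C below in each row, with the geometric mean and the range of the 3 libraries. All pairs but ECM10 over SSC1 sit further right at 37 °C, and PGM2 over PGM1 and RPL9B over RPL9A cross 1.

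Sugar uptake and the entry of glycolysis changed by gene rather than as a whole. Of 19 hexose transport genes measured, 11 rose and 5 fell. HXT1, the low-affinity transporter used at high glucose, had 140.2, 129.7 and 130.1 CPM at 37 °C, against 414, 421 and 430.0 CPM at 30 °C (-1.66), HXT2 fell to 303, 296 and 272 CPM at 37 °C, against 646, 615 and 596 CPM at 30 °C, and HXT3 fell by 0.40. The high-affinity transporter gene HXT7 had 151, 129 and 131 CPM at 37 °C, against 41.5, 42.0 and 35.9 CPM at 30 °C (1.78), but HXT6 is a near-identical copy. HXT5 rose by 1.41 and HXT4 by 0.86. In glycolysis 9 of 27 genes rose (33.3%) and 13 fell (48.1%), against 33% and 30.6% of all genes tested. The median of -0.11 is 0.04 by library totals and -0.17 without replicate 2 at 37 °C. TDH1 (1.47), HXK1 (1.40) and the glucokinase gene GLK1 (1.18, overlapping YCL042W) rose, while TDH2 (-0.78, a near copy of TDH3), FBA1 (-0.52) and ADH5 (-0.86) fell.

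In respiration 7 of 42 genes rose (16.7%) and 18 fell (42.9%), against 33% and 30.6% of all genes tested. The median of -0.07 becomes 0.09 by library totals, where 21 rose and 6 fell. Without replicate 2 at 37 °C, 12 rose. The isoform genes NDE2 (1.37) and COX5B (0.96) and the small subunit gene COX26 (1.50) led the rises of this list. CYC1 (-0.68), COX4 (-0.54) and ATP3 (-0.43) led its falls. CYC7 (1.88) and SHH3 (2.78) rose more and are outside this list. In the citrate and glyoxylate cycles 13 of 25 rose and 5 fell, from 0.76 for the isocitrate dehydrogenase gene IDP2 to -0.91 for the peroxisomal citrate synthase gene CIT2.

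On the falling side, ribosomal protein genes moved nearly as one: 135 of 138 fell and 3 rose, with a median log2 fold change of -0.75. Their share of assigned counts was 9.88, 9.07 and 9.45% at 37 °C, against 14.0, 14.1 and 14.3% at 30 °C, so that the groups did not overlap. RPL9A had 399.6, 393 and 383 CPM at 37 °C, against 871, 869 and 891 CPM at 30 °C (-1.16), and RPS21A and RPS22B fell by 1.08 and 1.05 on the log2 scale. RPS22B overlaps the small nucleolar RNA gene SNR44 on the same strand. The 3 that rose were each a member of a pair whose partner fell. RPS14B had 421, 368 and 382 CPM at 37 °C, against 257, 269 and 259.6 CPM at 30 °C (0.57), while RPS14A fell by 0.76. RPL15B rose by 0.25 and RPL15A fell by 0.58. RPL9B rose by 0.10, a call that is lost by RLE size factors and DESeq2 and without any 1 library but replicate 3 at 37 °C (0.076 to 0.11).

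The machinery around the ribosome fell too. Of 149 ribosome biogenesis genes, 134 fell and none rose in edgeR's test, with a median of -0.34. By library totals 96 fell and 4 rose. DBP2, an RNA helicase gene (-0.98), NOP1, the fibrillarin gene (-0.79), and GAR1, of the H/ACA particles (-0.76), fell most among those with at least 10 CPM. Of 42 translation factor genes 36 fell and 1, GCD6, rose (0.14), with a median of -0.47. TEF4, an elongation factor subunit whose intron holds SNR38, fell by 0.86, the ribosome-bound STM1 by 0.81 and YEF3, the fungal elongation factor 3, by 0.81, the last to 4109.7, 4138 and 4062 CPM at 37 °C, against 7211, 7169 and 7164 CPM at 30 °C. Of the same windows, the PAC motif of ribosome biogenesis genes (GCGATGAG or its reverse complement CTCATCGC) lay in 50 of 149 of these genes (33.6%) and in 220 of 5726 overall (3.84%). The motif is known from such genes, so this share is not independent of the list.

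Genes of amino acid synthesis fell nearly throughout: 55 of 63 genes fell and 2 rose, with a median of -0.69. HIS4, which carries several steps of histidine synthesis, had 289, 285 and 286 CPM at 37 °C, against 884, 891 and 951 CPM at 30 °C (-1.67 ± 0.042, SE). LEU1, isopropylmalate isomerase, had 288, 297 and 291 CPM at 37 °C, against 877, 903 and 909 CPM at 30 °C (-1.62). BAT1, the mitochondrial branched-chain aminotransferase, had 388, 364 and 365 CPM at 37 °C, against 991, 1039 and 1056 CPM at 30 °C (-1.47). For these 3 genes no value at 37 °C came near those at 30 °C. CHA1, a serine deaminase gene, and HIS6 rose slightly, by 0.22 and 0.21. The HIS6 call is lost without replicate 1 at 37 °C (0.15) or replicate 3 at 30 °C (0.17). The list's share of assigned counts was 2.17 ± 0.0283% at 37 °C and 3.23 ± 0.0107% at 30 °C (mean ± SD, n = 3).

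Sulfate assimilation and methionine genes followed, with 23 of 27 lower and 1 higher (STR3, 0.39) and a median of -0.48. MET16 had 61.6, 54.8 and 62.1 CPM at 37 °C, against 132, 144 and 147 CPM at 30 °C (-1.25), MET14 fell by 1.20 and the methionine synthase gene MET6 by 1.15. SNZ1 and SNO1, the vitamin B6 pair that amino acid limitation is known to switch on, also fell (-1.24 and -0.94). GCN4, whose product activates amino acid genes, had 1128, 1201 and 1071 CPM at 37 °C, against 1474, 1470.4 and 1482 CPM at 30 °C. Its protein is set mainly by translation, which these data do not measure.

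The Gcn4 site TGACTCA (reverse complement TGAGTCA) lay in 30 of 63 amino acid windows (47.6%), in 15 of 50 windows of genes at least 2-fold lower with at least 10 CPM (30.0%) and in 209 of 5726 overall (3.65%). It is shown in capitals upstream of HIS4, and the palindrome CACGTG, bound by Pho4 and also by Cbf1 of the methionine genes, upstream of PHO89.
HIS4 (chrIII:68470-68589, - strand): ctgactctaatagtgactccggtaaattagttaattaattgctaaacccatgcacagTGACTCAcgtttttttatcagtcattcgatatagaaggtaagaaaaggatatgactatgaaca
PHO89 (chrII:798783-798902, - strand): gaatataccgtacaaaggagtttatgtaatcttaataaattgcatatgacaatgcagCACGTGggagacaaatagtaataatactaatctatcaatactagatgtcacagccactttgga
CACGTG lay in 19 of 30 phosphate windows (63.3%), in 18 of 27 methionine and sulfate windows (66.7%) and in 327 of 5726 overall (5.71%). The phosphate list was drawn from the Pho4 regulon, so its share is not independent of the motif. Nor are the shares of the amino acid and methionine lists, since Gcn4 and Cbf1 are known from such genes. Those lists also held 16 of the 51 genes at least 2-fold lower with at least 10 CPM, so the share among the falls is not independent of them.

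Phosphate genes fell in number and, for a few, in size: 23 of 30 fell and 3 rose, with a median of -0.27. PHO89, the sodium-coupled phosphate transporter, had 28.4, 24.1 and 23.6 CPM at 37 °C, against 84.97, 88.8 and 89.2 CPM at 30 °C (-1.80). PHO11, a secreted acid phosphatase gene, had 25.7, 25.6 and 24.4 CPM at 37 °C, against 80.5, 86.0 and 94.4 CPM at 30 °C (-1.78). PHO12, its near-identical copy, had 46.0, 43.8 and 41.2 CPM at 37 °C, against 126, 137 and 142 CPM at 30 °C (-1.63). The groups did not overlap for any of the 3 genes. PHM8 (0.41), PHO80 (0.35) and GPP2 (0.30) rose. By library totals the list split into 6 higher and 15 lower. FET3, the ferroxidase of high-affinity iron uptake, had 36.1, 36.8 and 35.1 CPM at 37 °C, against 123, 129.9 and 102 CPM at 30 °C (-1.71). The iron list as a whole split into 11 higher and 9 lower of 30 (36.7% and 30%). These shares are near those over all genes tested (33% and 30.6%). By library totals the iron list split into 18 higher and 6 lower. FIT2 (0.74), FET4 (0.64) and TIS11 (0.56) rose, and SIT1 (-0.71) and VHT1 (-0.67) fell.

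Proteasome genes fell as a group by small amounts, 34 of 36 lower and none higher in edgeR's test, with a median of -0.31 and a range from -0.45 to 0.10. By library totals 25 fell and 2 rose. PRE2 (-0.45), PUP1 (-0.45) and PRE3 (-0.44), the catalytic subunits of the core, fell most. RPN4, which encodes the activator of these genes, was slightly higher, with 447, 478 and 472 CPM at 37 °C, against 414, 440.2 and 407 CPM at 30 °C, a call that is lost in the fit of all 24 libraries and without replicate 3 at 30 °C (0.12).

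**Figure D4:**
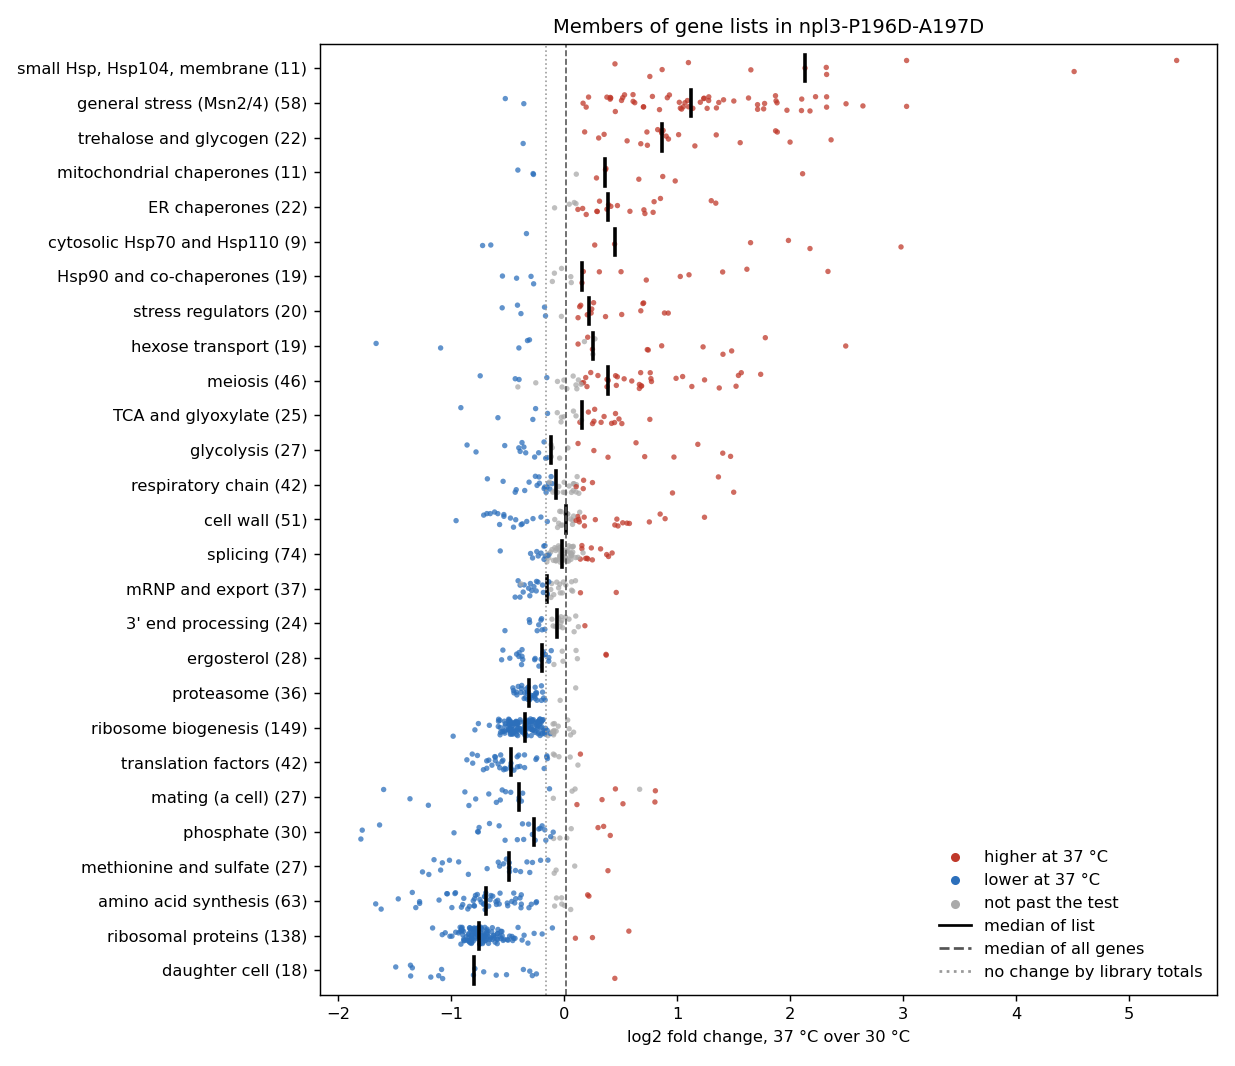
Log2 fold change (37 °C over 30 °C) of every tested member of 27 gene lists in npl3-P196D-A197D, coloured by the edgeR call, with the number tested in brackets and the median as a bar. The dashed line is the median of all genes and the dotted line the point of no change by library totals, so that lists whose bars lie between dotted line and 0 turn sign with the scaling.

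Genes of cell separation, mating and the cell cycle were mostly lower. Of 18 genes of daughter-cell separation, 17 fell and 1, PST1, rose (0.45), with a median of -0.79. CTS1, the chitinase that parts mother and daughter, had 216, 239 and 235 CPM at 37 °C, against 585, 597 and 586 CPM at 30 °C (-1.36). DSE2, a daughter-specific glucanase gene, had 64.8, 76.0 and 80.0 CPM at 37 °C, against 208, 212 and 201 CPM at 30 °C (-1.49), and SCW11 fell to 79.4, 80.6 and 81.4 CPM at 37 °C, against 208, 208 and 204 CPM at 30 °C. In bulk samples fewer cells at a stage and less RNA per cell cannot be told apart.

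Of 19 genes of the G2 and M phases 14 fell and 1, CDC15, rose (0.55), led by the cyclin gene CLB2 (-0.72), HOF1 (-0.71) and CDC5 (-0.48). By library totals 7 fell and 3 rose. Of 20 genes of G1 and the G1 to S step 12 fell and 2 rose (9 and 6 by library totals). CLN1 (-0.85) and PCL9 (-0.78) were low. The rises, WHI5 (0.24) and MBP1 (0.15), are lost in DESeq2 (0.22 and 0.13) and without several single libraries: MBP1 without any but replicate 1 at 37 °C (0.12 to 0.16), and WHI5 without replicate 3 at 37 °C (0.19), replicate 1 at 30 °C (0.21) or replicate 2 at 30 °C (0.23). Mating and pheromone genes fell in 17 of 27 cases and rose in 6, FUS2 (0.45) and STE18 (0.34) among them. BAR1, the protease that degrades α-factor, had 116, 113 and 109 CPM at 37 °C, against 340.3, 338 and 345 CPM at 30 °C (-1.60). MFA2, a gene of the a-factor pheromone, had 174, 141 and 182 CPM at 37 °C, against 369, 381 and 387 CPM at 30 °C (-1.20), and FAR1, which arrests the cycle after pheromone, had 71.7, 75.5 and 72.1 CPM at 37 °C, against 195, 187 and 182 CPM at 30 °C (-1.36).

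**Figure D5:**
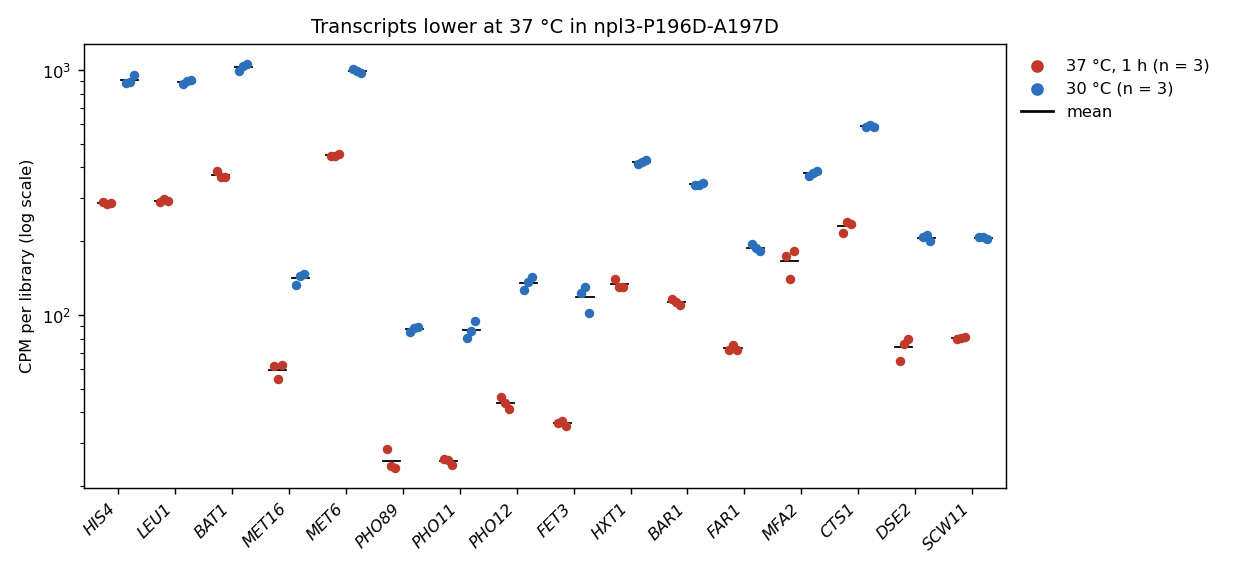
CPM per library (log axis) of 16 genes lower at 37 °C in npl3-P196D-A197D, with 37 °C left and 30 °C right for each gene, points for the 3 libraries and a bar for the mean. In every gene shown the 3 points at 37 °C lie below the 3 at 30 °C, from HIS4 with means of 287 against 909 CPM to PHO89 with means of 25.4 against 87.7 CPM.

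Lipid and wall genes gave small or mixed changes. Of 28 ergosterol genes 21 fell and 2, the transcription factor genes UPC2 (0.37) and ECM22 (0.37), rose, while ERG13 (-0.55), ERG6 (-0.54) and ERG1 (-0.48) fell most. By library totals 12 fell and 6 rose. In the list of fatty acid and phospholipid genes 6 rose and 14 fell of 28, with a median of -0.10 that is 0.06 by library totals. INO1 of inositol synthesis (1.24), RSB1 (1.22) and OPI3 (0.85) rose, and ELO2 (-0.71), FAA3 (-0.65) and the desaturase gene OLE1 (-0.53) fell. Of 51 cell wall genes 17 rose and 18 fell, from 1.24 for BAG7 to -0.95 for SCW10. These shares (33.3% and 35.3%) are near those over all genes tested (33% and 30.6%). By library totals 27 wall genes rose and 15 fell. PIR3 rose by 0.85 while its relative PIR1 fell by 0.71.

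Redox and drug export genes went both ways, 10 of 25 higher (40%) and 11 lower (44%). Over all genes tested the shares were 33% and 30.6%. Sulfiredoxin SRX1 had 45.4, 41.3 and 39.5 CPM at 37 °C, against 9.60, 9.62 and 9.08 CPM at 30 °C (2.16), and the peroxiredoxin genes TSA2 (1.19) and AHP1 (0.62) rose. ATR1, a multidrug efflux gene, had 114, 114 and 115 CPM at 37 °C, against 325, 326 and 341 CPM at 30 °C (-1.53), and FLR1 (-0.86) and GPX2 (-1.01) fell. AZR1, another efflux gene, which is in none of the lists, had 9.23, 9.30 and 7.56 CPM at 37 °C, against 31.3, 30.6 and 30.5 CPM at 30 °C (-1.81), the lowest fold change among the genes named. ALD6, the cytosolic acetaldehyde dehydrogenase, had 552, 586 and 564 CPM at 37 °C, against 1492, 1439.5 and 1472 CPM at 30 °C (-1.37). NFG1 was also among the 15 largest falls (-1.49), and neither ALD6 nor NFG1 is one of the 25 genes of the list. Of 24 vitamin B6 and B1 genes 14 rose and 5 fell, with THI20 at 1.07. THI5 (0.96) and THI12 (0.81) belong to a family of near copies.

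Genes of Npl3's own field of work changed little, and their direction rests on the scaling. Of 37 genes of mRNP assembly and export 18 fell and 2 rose, with a median of -0.15, while by library totals 10 fell and 11 rose with a median of 0.01. PAB1, the poly(A)-binding protein gene, had 903, 903 and 887 CPM at 37 °C, against 1176, 1164 and 1187 CPM at 30 °C (-0.39), and YRA2, an export adaptor gene, fell by 0.41. NAB6 (0.46) and SKY1, the kinase of Npl3 (0.15), rose, the SKY1 call being lost without replicate 3 at 37 °C (0.10) or replicate 1 at 30 °C (0.12). MLP2 of the nuclear basket had 155, 206 and 216 CPM at 37 °C, against 274, 231 and 276 CPM at 30 °C, a log2 fold change of -0.43 that is lost without replicate 2 at 37 °C (-0.49), replicate 1 at 30 °C (-0.40) or replicate 3 at 30 °C (-0.39), with no filter on low counts (-0.44) and by library totals (-0.28). Of 24 genes of 3′ end processing 9 fell and 1 rose, with PTI1 at -0.52, NAB3 at -0.31, RNA14 at -0.30 and SYC1 at 0.18, a call lost without replicate 3 at 30 °C (0.16). By library totals 3 of the 24 fell and 10 rose, and the median of -0.06 becomes 0.09.

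Splicing genes behaved alike, with 13 of 74 lower (17.6%) and 12 higher (16.2%) and a median of -0.02. By library totals 2 were lower and 38 higher, with a median of 0.14. SMD1 fell most (-0.56), but it overlaps PRP38 on the other strand and whether the counting kept strands apart is not stated. SNU23 rose most (0.43). Of 173 intron-containing genes that do not encode ribosomal proteins 60 fell (34.7%) and 43 rose (24.9%). Over all genes tested 30.6% fell and 33% rose. By library totals 27 of the intron-containing genes fell and 78 rose, and their median of -0.05 under TMM becomes 0.11. Among those with at least 10 CPM the ends were DBP2 (-0.98), TEF4 (-0.86) and ASC1 (-0.77, with SNR24 in its intron) and, rising, AMA1 (1.51), MRK1 (1.13) and DMC1 (1.13). Counts per gene do not separate spliced from unspliced RNA, so they do not measure splicing.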

How the data were processed

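The deposited counts per gene of 6 of the 24 libraries were used, 3 per temperature. Per the labels, the authors extracted total RNA with Trizol and prepared stranded mRNA libraries. Per the submitters' processing notes, FastQC, STAR 2.7.2a and HTSeq were used with build R64, and whether counting used the strand is not stated. Rows that name no gene were left out: 4.65 to 6.29% of each library fell in no feature and 0.843 to 1.01% was ambiguous.

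In R 4.3.3, edgeR 4.0.16 filtered genes (filterByExpr), scaled libraries by TMM factors and tested 37 °C over 30 °C by the quasi-likelihood F-test with robust estimation and Benjamini-Hochberg adjustment over 6299 genes, at 0.05. The fit had 4 residual degrees of freedom and a common biological coefficient of variation of 4.51%. In simulated data 50 genes were changed at each fold, alternating up and down, and the other 6099 were unchanged. The test recovered 88, 90, 96 and 98% of genes changed 1.25, 1.5, 2 and 4-fold and called 15 of the 6099. In the real data 63.6% of genes were called, so the simulation does not give the error rate in that setting. CPM are counts per 1000000 of the scaled library, and CPM per kb divide them by coding length. Values print as means ± SD over 3 libraries. Counting error is small for abundant transcripts at 15832309 to 34357019 counts per library. It is larger for genes with few counts, such as HSP32 with 36, 55 and 61 counts at 30 °C.

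Members and lists were chosen with earlier results of these data known. Genes named are NPL3, the 15 largest rises and falls whose groups do not overlap and whose mean is 10 CPM or more, every member of 4 chaperone and regulator lists, and up to 3 rises and 3 falls of each other list past the test with at least 10 CPM. A few genes and sites are not reported here. Strain and mating-type markers were named as checks. Other genes, the related pairs among them, were chosen after their values were seen. Copies are genes with at least 95% identity over 100 bases (BLAST 2.17.0). Promoter windows and the NPL3 stretch come from the R64 reference strain, not from W303. Alternatives were RLE size factors, library totals, DESeq2 1.42.0, other filters, a fit of all 24 libraries, a replicate block, an adjusted p of 0.01 and leaving out each library.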

Additional observations from a re-analysis of the deposited data

How the results depend on the processing

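Of the 240 genes named beside NPL3, 215 kept their call, or their lack of one, in every setting, and 25 did not. Uncalled values near 0, such as that of JJJ1, changed sign between settings without passing the test. By library totals without TMM factors 3212 genes were higher and 1113 lower, with 54 falls of at least 2-fold, and small negative values turned sign, among them NPL3 to 0.010 (edgeR adjusted p 0.865), TPK3, uncalled under TMM, to 0.13 and the meiotic gene MUM2 to 0.0047. With a minimum mean of 10 CPM 165 genes were at least 2-fold higher and 47 at least 2-fold lower, since fewer genes were tested. At an adjusted p of 0.01 NPL3, at -0.15, did not pass. Leaving out each library in turn gave 1857 to 2075 genes higher, 1766 to 1994 lower, 263 to 286 at least 2-fold higher, 79 to 118 at least 2-fold lower (118 without replicate 1 at 37 °C) and an NPL3 change of -0.19 to -0.096. Correlations of residuals were -0.10, -0.07 and 0.21 between same-numbered libraries and -0.15 to 0.20 between the others. With so few libraries these values do not settle whether the numbers pair them. With a replicate block 2044 genes were higher and 1906 lower (272 and 85 by at least 2-fold), and NPL3 stood at -0.15. Under the block RPL9B (0.10), MLP2 (-0.44) and AXL1 (0.11) did not pass, and 7 retrotransposon rows were lower in place of 4. DESeq2 called 1828 higher and 1953 lower. With 4 residual degrees of freedom, genes at a few CPM have wide errors, and 115 of the 273 genes at least 2-fold higher averaged under 10 CPM.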

Other observations

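Meiosis and sporulation genes, which vegetative MATa cells keep low, had a median log2 fold change of 0.39. They were higher at 37 °C in 31 of 46 tested cases (67.4%) and lower in 4 (8.70%). Over all genes tested the shares were 33% and 30.6%. Leaving out each library in turn gave 23 to 29 higher and 3 to 5 lower. SPO74, of the spindle pole body in meiosis, had 17.9, 18.7 and 17.1 CPM at 37 °C, against 5.30, 6.07 and 4.65 CPM at 30 °C (1.74 ± 0.11, SE), and the groups did not overlap. The septin gene SPR28 rose by 1.37, while SPO24 (-0.43), SPO21 (-0.40) and MUM2 (-0.15) fell. The MUM2 call is lost without replicate 1 at 30 °C (-0.13). All but SPO24 and MUM2 of these averaged under 20 CPM at either temperature.

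Of 47 retrotransposon rows tested 9 were higher (19.1%) and 4 lower (8.51%), against 33% and 30.6% of all genes tested. Their median of -0.05 becomes 0.10 by library totals and 0.02 without replicate 2 at 37 °C. Without replicate 1 at 37 °C, 15 were higher, and without replicate 3 at 30 °C, 2 were lower. The rows are near copies of each other, so their reads could be shared. YBL100W-B had 82.2, 100.8 and 109 CPM at 37 °C, against 45.2, 43.6 and 49.5 CPM at 30 °C (1.08) and YDR170W-A had 26.4, 25.9 and 28.0 CPM at 37 °C, against 42.9, 46.4 and 54.2 CPM at 30 °C (-0.84). Of 74 small nucleolar RNA genes 19 were higher (25.7%) and 28 lower (37.8%). Their median of -0.07 becomes 0.09 by library totals and -0.11 without replicate 2 at 37 °C. The libraries were made from mRNA, so these rows hold what that selection left. SNR44, inside RPS22B, fell by 1.26 with its host, and SNR4 rose by 0.96.

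Of 11 histone genes 2 rose (18.2%) and 5 fell (45.5%), against 33% and 30.6% of all genes tested. Their median of -0.08 becomes 0.07 by library totals and -0.02 without replicate 2 at 37 °C. The pair of H2A genes moved apart: HTA1 had 529, 448 and 487 CPM at 37 °C, against 383, 410.3 and 393 CPM at 30 °C (0.30), and HTA2 had 289, 266 and 284 CPM at 37 °C, against 379.8, 411 and 412 CPM at 30 °C (-0.52). Of the strain and plasmid markers, LEU2 averaged 374 ± 10.8 CPM at 37 °C and 381 ± 20.02 CPM at 30 °C and did not pass the test. Its counts do not separate the copy on pRS315 from the mutated leu2 of the strain. TRP1 rose by 0.23, and HIS3 (-0.64), ADE2 (-0.39) and URA3 (-0.33) fell. Of the 4 α-cell genes, STE3 rose by 0.66 and MF(ALPHA)1 by 0.93, and MF(ALPHA)2 and SAG1 fell (-1.44 and -0.16), the SAG1 call being lost without replicate 3 at 37 °C, replicate 1 at 30 °C or replicate 2 at 30 °C (-0.14 in each case).

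Of the 158 genes at least 2-fold higher with at least 10 CPM, 79 belong to none of the lists. Among these, chosen after their values were seen, CAR2 of arginine breakdown averaged 50.6 ± 3.92 CPM at 37 °C and 15.8 ± 1.14 CPM at 30 °C (log2 fold change 1.68). PUT1 of proline breakdown averaged 323 ± 3.98 CPM at 37 °C and 106 ± 1.80 CPM at 30 °C (1.60). ALD4, the mitochondrial acetaldehyde dehydrogenase, averaged 539.9 ± 26.4 CPM at 37 °C and 231 ± 15.6 CPM at 30 °C (1.23), opposite in sign to its cytosolic relative ALD6. Of the 51 genes lower by as much, 10 belong to none of the lists, among them ADH6, an NADPH-dependent alcohol dehydrogenase gene, at 385 ± 10.2 CPM at 37 °C and 979 ± 42.3 CPM at 30 °C (-1.35).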
